A study of Rattus norvegicus with 36 samples.

Results

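The genes described here encode the major histocompatibility complex (MHC, named RT1 in the rat) and the machinery that loads it with peptides. They were taken by symbol from the RNA-seq table, as all 49 entries that start with RT1- and 12 of 13 further named genes (B2m, Tap1, Tap2, Tapbp, Psmb8, Psmb9, Psmb10, Psme1, Psme2, Cd74, Ciita and Erap1). Nlrc5, the other named gene, was not analysed here. These are 61 of 17352 named entries. RNA-seq was carried out on bulk colonic tissue of male F344 rats at 30 weeks of age, after 26 weeks on AIN93 control diet or on SPI, the same diet with 10% freeze-dried spinach. WT rats gave normal colon on control diet (WCN) or SPI (WSN). Pirc rats (F344/NTac-Apc am1137), which carry a mutant Apc allele in the germline, gave normal-looking colon (PCN on control diet, PSN on SPI) and colon tumor (PCT on control diet, PST on SPI). Each of the 6 groups has 3 libraries, numbered 1 to 3, and the Pirc groups share the Apc mutation in normal-looking tissue and tumor alike.

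Class I molecules pair an RT1 heavy chain with beta-2 microglobulin (B2m) on nearly all cells and show peptides of the cell's own proteins to CD8 T cells. The immunoproteasome cuts these peptides, the transporter of Tap1 and Tap2 carries them into the endoplasmic reticulum, Erap1 trims them and tapasin (Tapbp) helps to load them. Class II molecules, alpha and beta chains held by the invariant chain (Cd74) until they meet endocytosed peptides, are made mainly by dendritic cells, macrophages and B cells, under the transactivator Ciita. Interferon-gamma raises both pathways and can bring class II to epithelium.

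The start regions of these genes carry short elements known to act in both pathways, and they are shown for 9 members whose values are described here. RefSeq (GRCr8) gave a promoter for 51 of the 61 genes. Printed are the 150 bases before the annotated gene start, 5′ to 3′ on the gene's strand. Capitals mark the core of the interferon-stimulated response element (GAAA, any 2 bases, GAAA), the inverted CCAAT box ATTGG, the cyclic AMP element core TGACG and the X box core TAGCAAC, each searched on both strands, so that their reverse complements appear too.
Cd74 (chr18:56527056-56527205, plus strand): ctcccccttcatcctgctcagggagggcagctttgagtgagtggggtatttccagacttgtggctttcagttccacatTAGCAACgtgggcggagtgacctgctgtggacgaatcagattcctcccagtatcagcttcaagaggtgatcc
RT1-Da (chr20:4515265-4515414, plus strand): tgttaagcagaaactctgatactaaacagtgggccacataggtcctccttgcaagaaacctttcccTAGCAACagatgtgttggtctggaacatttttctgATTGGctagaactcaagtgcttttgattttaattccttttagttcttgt
RT1-Ba (chr20:4576907-4577056, plus strand): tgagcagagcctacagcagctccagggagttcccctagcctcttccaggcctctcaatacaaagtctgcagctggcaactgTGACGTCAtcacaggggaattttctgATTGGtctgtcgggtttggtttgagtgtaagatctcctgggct
RT1-DOb (chr20:4627524-4627673, minus strand): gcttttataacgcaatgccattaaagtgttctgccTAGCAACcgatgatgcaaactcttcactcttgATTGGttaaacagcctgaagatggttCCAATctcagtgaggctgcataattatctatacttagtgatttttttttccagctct
B2m (chr3:129549180-129549329, plus strand): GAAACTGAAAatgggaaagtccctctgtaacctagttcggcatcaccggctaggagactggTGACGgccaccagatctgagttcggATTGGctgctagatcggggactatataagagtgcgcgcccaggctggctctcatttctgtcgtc
RT1-CE16 (chr20:3265444-3265593, minus strand): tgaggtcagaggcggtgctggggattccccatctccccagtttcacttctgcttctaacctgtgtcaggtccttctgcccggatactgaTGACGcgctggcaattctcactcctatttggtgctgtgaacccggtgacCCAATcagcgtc
RT1-S3 (chr20:2675378-2675527, plus strand): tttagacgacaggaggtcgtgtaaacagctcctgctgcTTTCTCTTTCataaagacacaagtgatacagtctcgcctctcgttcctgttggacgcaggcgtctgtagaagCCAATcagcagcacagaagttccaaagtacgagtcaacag
Tap1 (chr20:4668544-4668693, minus strand): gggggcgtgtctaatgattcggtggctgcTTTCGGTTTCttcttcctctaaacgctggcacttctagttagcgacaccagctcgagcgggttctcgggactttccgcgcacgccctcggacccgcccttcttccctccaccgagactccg
Tapbp (chr20:4967878-4968027, minus strand): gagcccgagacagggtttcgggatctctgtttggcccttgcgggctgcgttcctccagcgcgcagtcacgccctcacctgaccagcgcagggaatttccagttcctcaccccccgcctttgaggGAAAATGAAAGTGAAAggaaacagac

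The class II genes RT1-Da and RT1-DOb hold an X box core and, toward the gene, an ATTGG, and RT1-Ba holds an overlapping pair of TGACG on opposite strands before its ATTGG. In RT1-Da the X box core starts 84 bases and ATTGG 49 bases before the gene start. Cd74 holds the X box core alone in this stretch. Tapbp has overlapping matches to the interferon element, the first starting 26 bases before the gene, while Tap1, RT1-S3 and B2m hold 1 match each. Over the 250 bases before the start, the interferon element occurred in 9 of 51 members (17.6%) and in 902 of 27457 RefSeq promoters (3.29%). ATTGG occurred in 32 of 51 members (62.7%) and 34.3% of all promoters, TGACG in 21.6% and 19.0%, and TAGCAAC, a motif chosen after the sequences were seen, in 6 of 51 (11.8%) and 2.92%. A further motif, TTCNNNGAA, which STAT factors bind, occurred in 5.88% of members and 7.52% of all promoters. RT1 genes arose by duplication and share sequence, so these shares are not counts of independent genes, and a match shows only that the letters are there.

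Values are RPKM, reads scaled by the authors to gene length and to the mapped reads of the library. Levels of different genes can be compared only roughly. The proteasome subunit Psmb6 reached at most 6.70 RPKM, where Psmb5, a subunit of the same complex, reached 221.6. Depth is not given by RPKM, and relative depth, read from the steps of the lowest values and set to 1 for the median library, was 0.620 to 1.52. Groups were compared on log2(RPKM + 0.5) in 1 limma fit of all 18 libraries, for the 11544 genes that reached 1 RPKM in 3 or more libraries. A gene is said to have risen or fallen where its p, adjusted by Benjamini-Hochberg over these genes, was under 0.05. Log2 fold changes are on this scale, which understates changes of low genes. Of the 61 genes, 34 were tested. RT1-T24-3 passed the filter with 3 libraries at 1 RPKM, while RT1-Db2, a second class II beta gene with 2 libraries (2.99 RPKM in WSN3, 1.29 in PSN1), was left out. Another 13 were listed at 0 in all 18 libraries and 14 had a highest value of 0.0300 to 2.99 RPKM. Listed at 0 were Tap2, the DM genes RT1-DMa and RT1-DMb, which exchange class II peptides, RT1-Ha and 9 class Ib genes. The proteasome assembly gene Pomp and the class II promoter factor Rfxap, which cells use widely, were listed at 0 too, so a 0 is not read as absence of the transcript.

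In RPKM the light chain stood far above any heavy chain. B2m had a mean of 1443 RPKM over the 18 libraries and was the 13th most abundant entry of the table by mean RPKM, and Cd74 (597 RPKM) was the 57th. Class II chains followed, with RT1-Da at 298, RT1-Ba at 172, RT1-Bb at 134 and RT1-Db1 at 122 RPKM. In the class I pathway Tapbp had 162, Psmb10 82.2, Psmb9 77.9, Erap1 34.3, Tap1 28.6, Psme1 13.2, Psmb8 12.9 and Psme2 10.2 RPKM. The most abundant heavy chain was RT1-CE16, a class Ib gene, at 57.6 RPKM, and RT1-S3, the counterpart of mouse Qa-1, which shows leader peptides to natural killer cells, had 21.6. The genes of classical class Ia stood at 1.99 (RT1-A1), 0.996 (RT1-A2) and 4.46 RPKM (RT1-A3). RT1-CE16 made up 39.1 to 55.7% of the summed heavy chain RPKM of a library and class Ia 4.12 to 8.39%. Heavy chain genes are near-identical copies that differ in sequence and number between rat strains, and reads can be shared among them. The reference used for counting is not given in the sources used here, so values of single heavy chains, also those below, are uncertain.

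**Figure D1:**
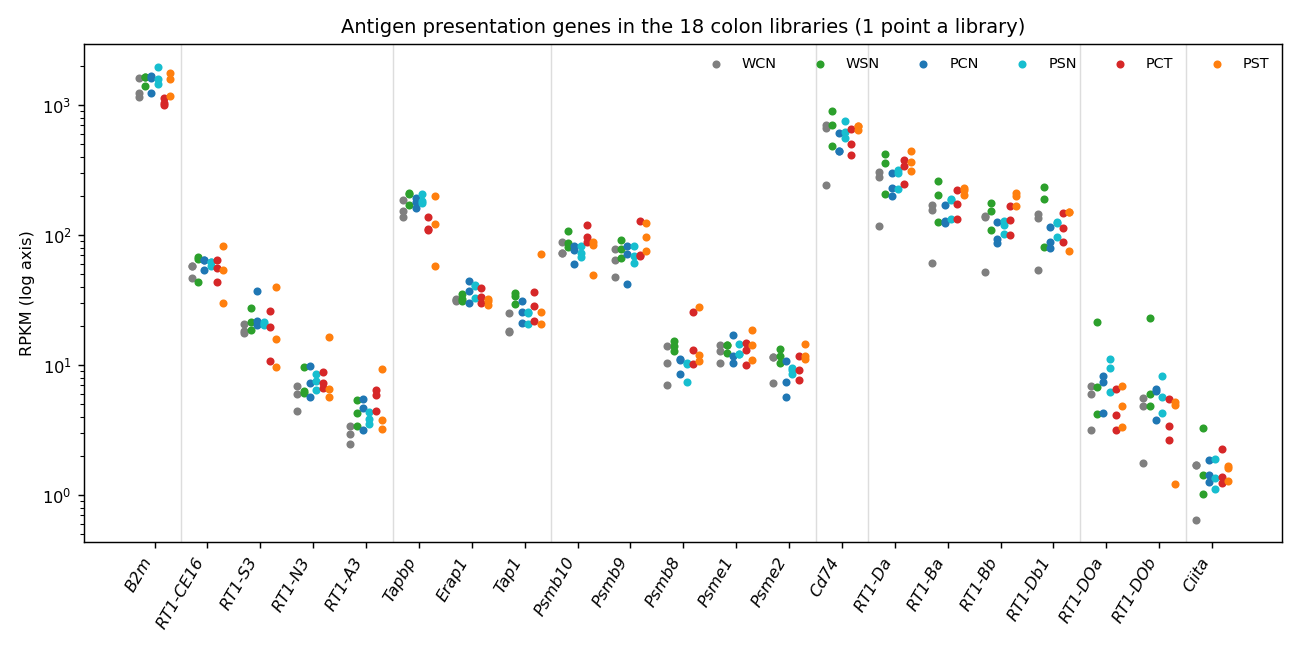
RPKM (log axis) of 21 genes in the 18 libraries, 1 point a library, coloured by group. Grey lines separate, from left, the light chain, heavy chains, loading and trimming, immunoproteasome, invariant chain, class II chains, DO chains and transactivator. B2m lies at 1007 RPKM or more in every library, and library PST1 stands above the other tumor libraries for Tap1 at 71.5 RPKM.

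Several libraries stood apart in these genes. Among the 6 tumor libraries PST1 was the highest in 20 of the 34 tested genes, and PST2 the lowest in 15. PST2 also differed from all other libraries in the ratio of the complement genes C1qa and C1qc, at 0.400 against 0.873 to 1.26, and had the lowest mean correlation with its own group (0.946, others 0.952 to 0.976). Among the 12 normal libraries WCN2 was the lowest in 18 of the 34 and WSN3 the highest in 13. Markers of smooth muscle and neutrophils moved with tissue. The 6 smooth muscle markers (Myh11, Des and others) summed to 869 to 2921 RPKM in Pirc normal-looking colon and 78.1 to 225.6 in tumors. All 6 fell in PCT vs. PCN, beside 11.7% of all genes, and in PST vs. PSN, beside 16.5%. The 6 neutrophil markers summed to 28.1 to 74.3 and to 187.9 to 1724, with Mpo at 0.04 RPKM or less. Of 5 tested 5 rose in PCT (100%, beside 21.0% of all genes) and 4 in PST (80.0%, beside 25.9%). The 8 macrophage markers summed to 247 to 461 and 334 to 545, and in both comparisons 1 rose and 1 fell. The part of these cells in the results below was not tested, and in bulk tissue fewer cells of a type and less RNA per cell cannot be told apart.

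In tumors, few MHC genes were called as changed, and those called had fallen. Between PCT and PCN, which asks what differs in tumors on control diet, 2 of the 34 tested genes fell (B2m and RT1-T18) and 0 rose. Of all 11544 genes 32.7% were called in this comparison, 11.7% as fallen and 21.0% as risen, against 5.88% of the members. Between PST and PSN, the same contrast on SPI, 4 of 34 fell (RT1-CE2, RT1-A1, RT1-T18 and Tapbp) and 0 rose, with 42.3% of all genes called, 16.5% fallen and 25.9% risen, against 11.8% of the members. The difference between these shares was not tested. The members' median log2 fold change was 0.04 beside 0.13 for all genes in PCT vs. PCN and 0.08 beside 0.12 in PST vs. PSN. With median-of-ratios scaling the median of all genes moved to 0.01 in both comparisons, the members' medians turned to -0.08 and -0.03, and the risen share of all calls went from 64.2 to 49.8% and from 61.1 to 49.8%. Members varied more than most genes, with a median SE of 0.33 against 0.22 over all genes tested, and the 95% interval of the fold change lay within 1 log2 unit of 0 for 15 of 34 members in PCT vs. PCN and 14 in PST vs. PSN.

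**Figure D2:**
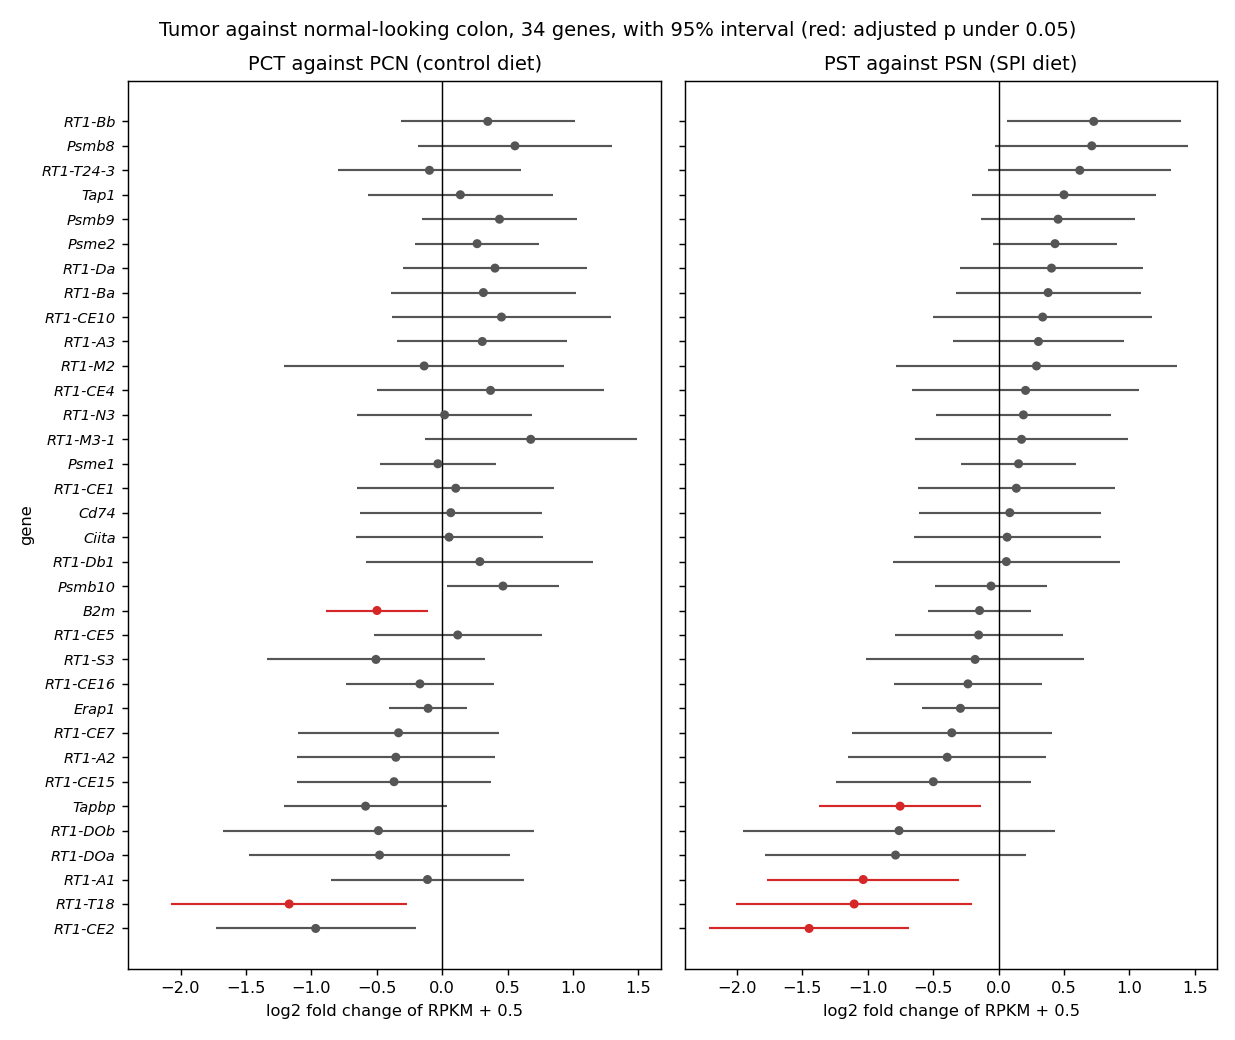
Log2 fold change of RPKM + 0.5 (points) with 95% intervals (lines) for the 34 tested genes, tumor against normal-looking Pirc colon on control diet (left) and SPI (right), ordered by the values on SPI. Red marks an adjusted p under 0.05, reached by 2 genes on the left and 4 on the right, all below 0.

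B2m fell in tumors on control diet. In WT colon it was 1238, 1162 and 1623 RPKM in WCN and 1409, 1639 and 1655 in WSN. Its RPKM was 1237, 1619 and 1673 in PCN and 1133, 1042 and 1007 in PCT, so that every tumor library lay below every normal-looking one (log2 fold change -0.50 with an SE of 0.18, limma adjusted p = 0.0483). The call was narrow: it held without WCN3, PCN1, PSN1, PST2 or PST3 and ended without any 1 of the other 13 libraries (adjusted p 0.0503 to 0.169). With the replicate block, which assumes that libraries of the same number are tissues of 1 rat, the adjusted p was 0.0756. On SPI the values were 1978, 1576 and 1443 in PSN and 1579, 1778 and 1185 in PST, which overlap (log2 fold change -0.15, 95% interval -0.54 to 0.25). Tumors on SPI and control diet did not overlap in B2m, all PST values being higher, but the difference did not pass over all genes (log2 fold change 0.49 with an SE of 0.18, limma adjusted p = 0.545). The diet effect also did not differ detectably between tumor and normal-looking colon (interaction called for 0 members).

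Of 17 class I heavy chains tested, 1 fell in PCT and 3 in PST, beside 11.7 and 16.5% of all genes. RT1-CE2, a class Ib gene, held 7.36, 10.7 and 5.47 RPKM in PCN and 5.02, 1.90 and 4.79 in PCT, and 11.99, 9.09 and 11.1 in PSN against 4.28, 4.38 and 2.43 in PST. No tumor library reached the normal-looking libraries of its diet. In WT colon RT1-CE2 was 8.85, 4.38 and 12.4 RPKM in WCN and 7.73, 8.45 and 7.98 in WSN. WCN2 thus equalled PST2 and lay below PCT1 and PCT3. The fall from PSN to PST was -1.45 log2 units (SE 0.36, 95% interval -2.21 to -0.68, adjusted p = 0.00469 from limma). It was called without each of the 18 libraries in turn (adjusted p 0.00201 to 0.0252) and in the 8 other alternative fits (0.000566 to 0.0217). On control diet the log2 fold change was -0.97 (SE 0.36, adjusted p = 0.0503). The interaction of tumor and diet was not called, so the falls are not shown to differ.

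RT1-T18, another class Ib gene, had 1.76, 6.88 and 4.70 RPKM in PCN, 1.69, 1.82 and 1.00 in PCT, 2.74, 1.58 and 2.17 in PSN and 0.830, 0.540 and 0.810 in PST. It was the only member called in both tumor comparisons, with log2 fold changes of -1.17 on control diet (SE 0.42, adjusted p = 0.0446 from limma) and -1.10 on SPI (SE 0.42, adjusted p = 0.0467). PCN and PCT overlapped, since PCN1 lay below PCT2. In WT colon RT1-T18 was 0.900, 1.52 and 3.13 RPKM in WCN, a range that holds all PCT values. It was 4.55, 1.78 and 2.21 in WSN, above all PST values. The first call held without WCN1, WCN3, WSN1, WSN2, PCN1, PSN2 or PST2 and ended without any of the other 11 libraries (adjusted p 0.0507 to 0.187), and the second held without WCN1, WCN3, WSN1, WSN2, PCN1 or PCN2 and ended without any of the other 12 (0.0504 to 0.143). RT1-A1, a class Ia gene, was 3.15, 2.54 and 2.53 RPKM in PSN and 2.05, 0.320 and 1.37 in PST, without overlap (log2 fold change -1.03, SE 0.35, adjusted p = 0.0250). This call ended without PSN1 (adjusted p = 0.08) or without PST2 (adjusted p = 0.129, log2 fold change -0.56), and when PSN and PST alone were fitted (adjusted p = 0.0877). In PCT it was 2.96, 2.40 and 1.30 against 2.82, 2.10 and 2.14 in PCN (log2 fold change -0.11, adjusted p = 0.832). In WT colon RT1-A1 was 1.42, 1.33 and 2.32 RPKM in WCN and 1.48, 1.75 and 1.80 in WSN, below every PSN library. PST1 and PST3 lay within the range of WCN.

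RT1-CE16, RT1-S3 and RT1-N3, the most abundant heavy chains, were not called in either tumor comparison. RT1-CE16 was 64.4, 64.5 and 53.7 RPKM in PCN, 56.1, 64.3 and 43.3 in PCT, 62.6, 62.3 and 57.7 in PSN and 83.2, 30.4 and 54.3 in PST. Its log2 fold change was -0.17 on control diet (95% interval -0.74 to 0.40) and -0.23 on SPI (-0.80 to 0.33). In the PST group PST1 was the highest and PST2 the lowest of all 18 libraries, for RT1-S3 as well (39.7, 9.68 and 15.96 RPKM, log2 fold change -0.18, adjusted p = 0.738). On control diet RT1-S3 was 21.9, 37.0 and 20.4 RPKM in PCN and 19.7, 26.3 and 10.8 in PCT. With median-of-ratios scaling its log2 fold change there was -0.63 (SE 0.38, limma adjusted p = 0.223). RT1-N3, also class Ib, was 16.5, 5.72 and 6.55 RPKM in PST and 7.51, 6.45 and 8.50 in PSN (log2 fold change 0.19, 95% interval -0.48 to 0.86). Summed over all heavy chain entries, a library held 68.8 to 192.6 RPKM in tumors and 103.2 to 159.0 in normal tissue. B2m was 7.89 to 14.8 times this sum in 17 libraries and 25.8 times in PST2.

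**Figure D3:**
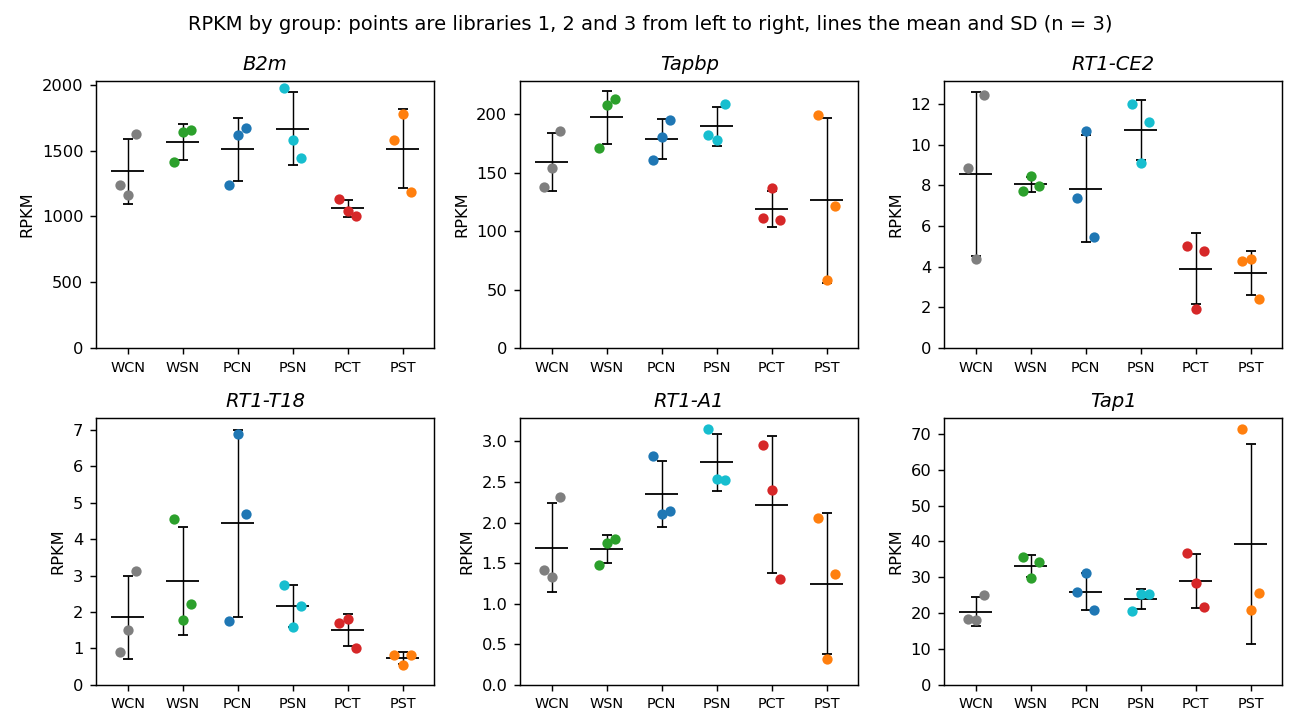
RPKM of 6 genes by group, with 3 points a group for libraries 1 to 3 from left to right and the mean with SD (n = 3) in black. B2m, RT1-CE2 and RT1-T18 were lower in PCT or PST than in normal-looking colon, PST2 was low for Tapbp and RT1-A1, and PST1 was high for Tap1.

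Among the loading genes Tapbp fell on SPI. It was 182.7, 177.9 and 208.4 RPKM in PSN and 199.4, 58.2 and 121.2 in PST, so 2 PST libraries lay below PSN and PST1 lay within it (log2 fold change -0.75 with an SE of 0.29, limma adjusted p = 0.0488). The call ended without any 1 library except PST1 (adjusted p 0.0538 to 0.258), and the fold change was -0.28 without PST2 and -1.17 without PST1 (adjusted p = 0.00155). With the replicate block the adjusted p was 0.0672. On control diet PCN held 160.9, 180.8 and 194.7 and PCT 111.7, 136.9 and 109.3 RPKM, without overlap, and the adjusted p was 0.138 (log2 fold change -0.59, SE 0.29). Tap1 was 20.7, 25.4 and 25.5 RPKM in PSN and 71.5, 20.8 and 25.7 in PST, where PST1 alone stood out, at 2.78 times the median of the other 5 tumor libraries (log2 fold change 0.50, SE 0.33, adjusted p = 0.240). Erap1 varied least, from 29.2 to 44.3 RPKM over all 18 libraries, with a log2 fold change of -0.11 in PCT vs. PCN and -0.29 in PST vs. PSN (adjusted p = 0.590 and 0.105). With median-of-ratios scaling Erap1 was called in PST vs. PSN (log2 fold change -0.41, adjusted p = 0.0309).

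The 5 immunoproteasome genes had 0 calls in either tumor comparison, with medians of 0.44 and 0.43 log2 units. Psmb8, a catalytic subunit, was 11.2, 10.95 and 8.49 RPKM in PCN and 25.7, 13.1 and 10.2 in PCT, and 10.2, 7.38 and 10.3 in PSN against 28.0, 10.8 and 11.9 in PST. All 3 PST libraries lay above PSN, and PCT1 and PST1 held the highest values of all 18 libraries (log2 fold changes 0.56, adjusted p = 0.237, and 0.71, adjusted p = 0.111, limma). Psmb9, a catalytic subunit whose gene neighbours Tap1, was highest in the same libraries, at 127.5 RPKM in PCT1 and 124.1 in PST1. Psmb10, the other inducible catalytic subunit, was 82.6, 76.5 and 60.3 RPKM in PCN and 118.9, 96.4 and 88.0 in PCT, without overlap (log2 fold change 0.47, SE 0.20, adjusted p = 0.0880). In PST it was 84.0, 49.4 and 88.3 RPKM. The activator subunits Psme1 and Psme2 differed by -0.03 and 0.27 log2 units in PCT vs. PCN and by 0.15 and 0.43 in PST vs. PSN. Psmb5 and Psmb7, constitutive subunits that inducible ones replace, rose in PCT (log2 fold changes 0.69 and 0.74, adjusted p = 0.00319 and 0.00223) and in PST (0.61 and 1.00, adjusted p = 0.00460 and 0.000154). Psmb6, also constitutive, was at 6.70 RPKM or less in every library, and its change is not given here.

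All 4 class II chains lay above 0 in both tumor comparisons, and none passed the test. In PST vs. PSN RT1-Db1 turned below 0 with median-of-ratios scaling (-0.06) and without PSN3 (-0.07), PST1 (-0.11) or PST3 (-0.11). RT1-Da was 199.8, 299.6 and 229.2 RPKM in PCN, 245.7, 381 and 340.3 in PCT, 318, 301.2 and 226.8 in PSN and 364, 312 and 445 in PST (log2 fold change 0.40 in both comparisons, adjusted p = 0.374 and 0.340 from limma). RT1-Bb was 94.0, 127.4 and 87.1 RPKM in PCN, 99.7, 166.9 and 129.8 in PCT, 120.5, 127.7 and 101.3 in PSN and 168.8, 198.8 and 212 in PST. Every PST library lay above every PSN library for RT1-Bb (log2 fold change 0.73, SE 0.31, adjusted p = 0.0727), as for its partner RT1-Ba (0.38, adjusted p = 0.379). The RT1-Bb difference was called with the replicate block (adjusted p = 0.00942) and without WCN2 (adjusted p = 0.0115). RT1-Db1 differed by 0.29 and 0.06 log2 units, with PST2 at 75.2 RPKM against 151.8 and 150.8 in PST1 and PST3. The log2 fold change of Cd74 was 0.07 in PCT vs. PCN (95% interval -0.63 to 0.76) and 0.09 in PST vs. PSN (-0.61 to 0.78), and that of Ciita 0.05 (-0.66 to 0.77) and 0.07 (-0.65 to 0.78). With median-of-ratios scaling these turned to -0.07 and -0.03 for Cd74 and to -0.05 and -0.03 for Ciita. Relative to Cd74, the summed RPKM of the 4 chains was 1.00 to 1.28 in the 12 normal libraries and 1.22 to 1.5 in the 6 tumors, a ratio chosen after the values were seen and not tested.

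Within normal colon, class II varied widely between libraries of a group. Cd74 was 708, 245.2 and 671 RPKM in WCN, 485, 707 and 895 in WSN, 442, 615 and 443 in PCN and 751, 619 and 556 in PSN. RT1-Da followed, at 305, 117.6 and 279 in WCN and 207.9, 361 and 423 in WSN. WCN2 was the lowest library for Cd74, RT1-Da, RT1-Ba, RT1-Bb, RT1-Db1 and Ciita (0.650 RPKM), and also held the lowest C1qa (63.6 RPKM) and Csf1r (7.24 RPKM), markers of macrophages. The 8 macrophage markers summed to 201.9 RPKM there and to 217.5 to 607 in the other normal libraries. The next lowest for C1qa was PST2, with 67.6 RPKM, where Cd74 was 649 RPKM, but C1qc was 169 RPKM there and the macrophage sum 420. WSN1 held the next lowest macrophage sum, 217.5 RPKM, with Cd74 at 485. The 7 dendritic cell markers in the table summed to 26.6 RPKM in WCN2 and were lowest in PCN3, at 16.7.

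RT1-DOa and RT1-DOb form DO, an inhibitor of peptide exchange found chiefly in B cells. RT1-DOa was 6.88, 3.20 and 6.06 RPKM in WCN, 4.21, 6.80 and 21.3 in WSN, 7.43, 8.21 and 4.30 in PCN and 11.1, 6.25 and 9.57 in PSN. RT1-DOb was 5.61, 1.78 and 4.88 RPKM in WCN, 4.85, 6.02 and 22.9 in WSN, 6.29, 6.62 and 3.76 in PCN and 8.33, 4.30 and 5.66 in PSN. WSN3 was the highest library for both chains. It held 41.8 RPKM of Cd79b, a B cell receptor gene, where the other 17 libraries held 0.190 to 13.3. The next highest for Cd79b were PSN1 and PSN3, which were also the next highest for RT1-DOa. For RT1-DOb PSN1 was the next highest, and PSN3 lay below PCN1, PCN2 and WSN2. The 7 B cell markers in the table summed to 101.8 RPKM in WSN3 and to 1.76 to 38.8 elsewhere, and Ciita (3.28 RPKM) and RT1-Db2 were highest in WSN3 as well. Of these markers 6 were tested and 0 called in any comparison. In tumors RT1-DOa was 4.18, 6.58 and 3.20 (PCT) and 4.89, 3.33 and 6.93 RPKM (PST), with log2 fold changes of -0.48 and -0.79 (adjusted p = 0.463 and 0.189 from limma). With the replicate block RT1-DOa was called as fallen in PST (adjusted p = 0.0178). The B cell markers had medians of -0.53 and -1.62 log2 units in the same comparisons.

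**Figure D4:**
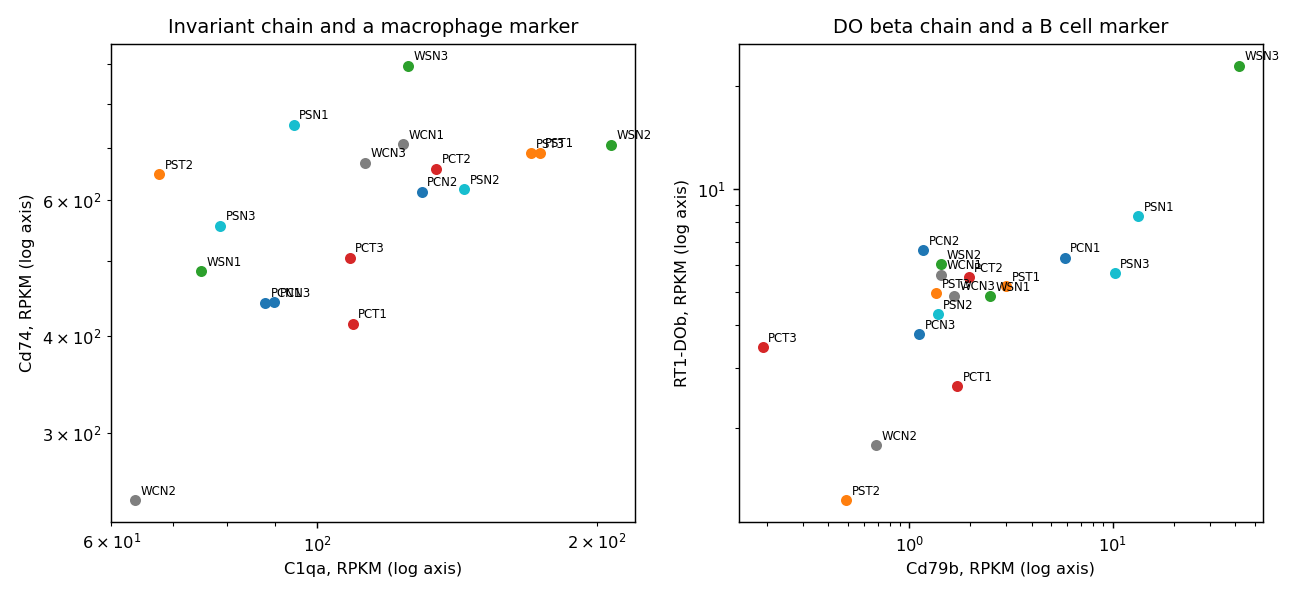
Left, Cd74 against the macrophage marker C1qa, and right, RT1-DOb against the B cell marker Cd79b, in RPKM on log axes, with each of the 18 libraries as a labelled point coloured by group. WCN2 lies lowest on the left, at 245.2 RPKM of Cd74, and WSN3 stands apart at the upper right of the right panel with 41.8 RPKM of Cd79b and 22.9 of RT1-DOb.

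SPI against control diet gave no call among the members. In WT colon (WSN vs. WCN) 0 of 34 were called, with 0.0% of all genes called, and 0 members and 376 of 11544 genes had an unadjusted p under 0.05. Of the members 33 of 34 lay above 0, with a median of 0.28 log2 units beside 0.05 for all genes. Tap1 was 18.3, 17.97 and 25.1 RPKM in WCN and 35.7, 29.7 and 34.2 in WSN, without overlap (log2 fold change 0.70, 95% interval -0.01 to 1.41, adjusted p = 1.00 from limma). RT1-Ba was 169.5, 61.3 and 155.2 against 126.2, 203 and 259 RPKM (log2 fold change 0.68, adjusted p = 1.00). The members' median was 0.13 with 27 above 0 without WCN2, 0.24 with 28 without WSN3, and up to 0.44 without WCN3. In normal-looking Pirc colon (PSN vs. PCN) 0 were called, with 0.00866% of all genes called, and 0 members and 614 genes had an unadjusted p under 0.05. The members' median was 0.15 and the largest differences were 0.72 for RT1-CE1 and -0.76 for RT1-T18 (adjusted p = 0.934 and 0.968).

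In tumors (PST vs. PCT) 0 of 34 members and 0.0% of all genes were called, and 3 members (B2m, Psmb10 and RT1-A1) and 920 genes had an unadjusted p under 0.05. The log2 fold change was -0.48 for Psmb10 (adjusted p = 0.552) and -0.74 for RT1-A1 (adjusted p = 0.623, limma). The members' median of 0.13 turned to -0.11 without PST1 and was 0.37 without PST2. These 2 libraries bounded the PST group for many members: relative to the median of the other 5 tumor libraries, Tap1 was 2.78 in PST1 and 0.732 in PST2, RT1-S3 2.48 and 0.490, Tapbp 1.79 and 0.480, and RT1-CE16 1.53 and 0.542. Interferon-induced genes did not all follow this order. The chemokine Cxcl10 had 181 RPKM in PST1 and 118.3 in PST2, and Parp14 44.9 and 7.20. Cxcl9, Cxcl11 and Gbp5 were lower in PST1 than in PST2 (15.5 and 62.6, 35.1 and 87.1, and 12.6 and 18.2 RPKM).

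**Figure D5:**
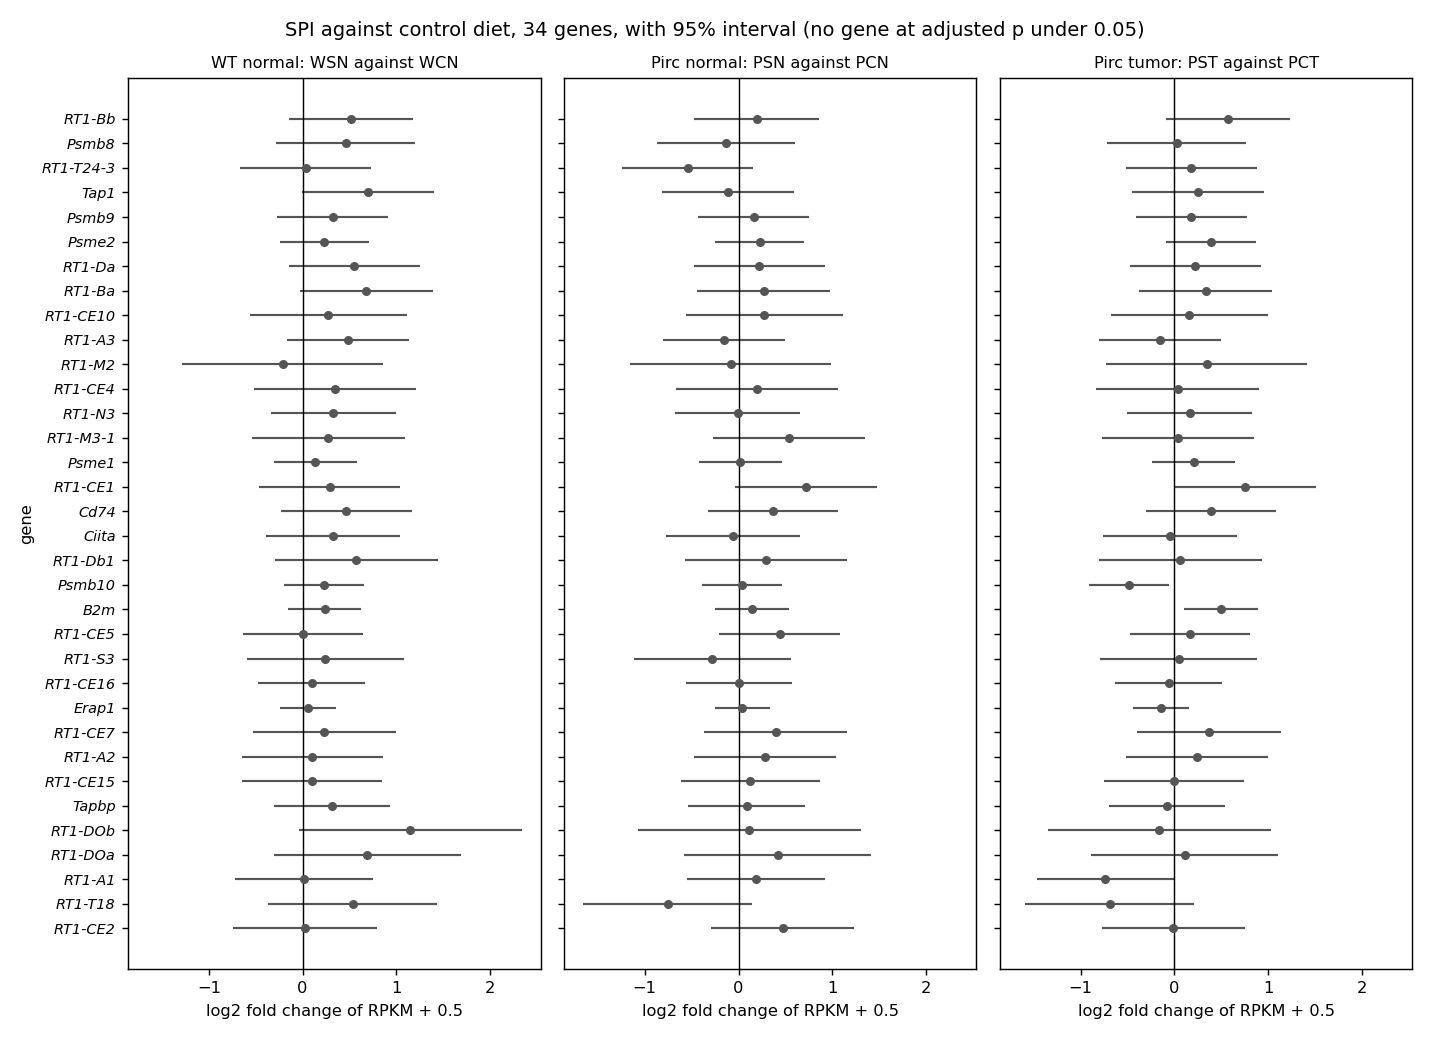
Log2 fold change of RPKM + 0.5 (points) with 95% intervals (lines) for SPI against control diet in WT normal colon, Pirc normal-looking colon and Pirc tumor, 34 genes in the order of the tumor comparison on SPI. Points lie between -0.76 and 1.15, and 0 genes passed the test in any panel.

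The Apc genotype in normal-looking tissue gave no member call either. These comparisons share WCN, WSN, PCN and PSN libraries with those of diet and tumor. Between PCN and WCN 0 of 34 were called (0.13% of all genes, 15 in number), and RT1-T18 alone had an unadjusted p under 0.05, as did 1545 genes. It was 0.900, 1.52 and 3.13 RPKM in WCN and, as given above, 1.76 to 6.88 in PCN (log2 fold change 1.03 with an SE of 0.42, adjusted p = 0.312, limma). On SPI (PSN vs. WSN) 0 members and 0.0% of all genes were called, and 0 members and 937 genes had an unadjusted p under 0.05. The members' medians were 0.13 in PCN vs. WCN and -0.11 in PSN vs. WSN, and the first turned to -0.12 without WCN2, with 15 of 34 above 0 in place of 24. The interaction of genotype and diet was called for 0 members (0.0% of all genes), with RT1-T18 alone at an unadjusted p under 0.05, and that of tumor and diet for 0 (0.0% of all genes), with 0 at an unadjusted p under 0.05. Their SEs were larger, with a median of 0.47 over the members. The 95% interval lay within 1 log2 unit of 0 for 7 and 8 of 34 members, so a difference of that size was not excluded for most.

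Partner genes of the pathway were counted in lists chosen by their roles, and no list was tested against all genes. Of 18 tested class I peptide loading partners 11 rose in PCT (61.1%, beside 21.0% of all genes) and 12 in PST (66.7%, beside 25.9%) and 0 fell, with medians of 0.54 and 0.62 log2 units. Among them Thop1 and Tpp2, cytosolic peptidases that shorten proteasome products, rose by 1.49 and 0.82 in PCT and 2.01 and 0.95 in PST (adjusted p = 0.000396, 0.000334, 2.06e-05 and 4.95e-05 from limma). Calr, Pdia3 and Canx, chaperones that help class I to fold, rose on SPI (0.46, 0.44 and 0.68 log2 units, adjusted p = 0.0443, 0.0448 and 0.00160), and Canx also on control diet (0.47, adjusted p = 0.0214). Of 6 class I-like genes outside RT1, Procr, an endothelial protein C receptor, rose in both (1.2 and 2.09 log2 units), and Fcgrt, the neonatal Fc receptor, which also pairs with B2m, fell in both (-0.65 and -1.25, adjusted p = 0.00210 and 1.03e-05).

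Of 16 class II processing genes 4 rose and 4 fell in each tumor comparison. The risen share of 25.0% was near that of all genes (21.0% in PCT, 25.9% in PST), and the fallen share of 25.0% stood beside 11.7 and 16.5% of all genes. Ctsz and Lgmn, endosomal proteases, rose (1.77 and 0.87 log2 units in PCT, 2.09 and 1.33 in PST), and Ctss, the protease that clears the last of the invariant chain, fell (-1.24 and -0.94, adjusted p = 0.00128 and 0.00517 from limma). Ctss was 249, 317 and 396 RPKM in PCT against 660, 631 and 985 in PCN. Of 13 factors of the class II promoter and its regulators 2 rose in PCT (15.4%) and 4 in PST (30.8%), shares near the 21.0 and 25.9% of all genes, Rfx5 among them on SPI (0.82, adjusted p = 0.00192), and Prdm1, a repressor of Ciita, rose in both (1.26 and 2.05, adjusted p = 0.00425 and 7.33e-05).

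Ifng itself was at 0.170 RPKM or less in every library. Of 16 interferon-gamma target genes 3 rose in PCT (18.8%, near the 21.0% of all genes) and 13 in PST (81.2%, beside 25.9%), and 0 fell, with medians of 0.97 and 1.62 log2 units, while the interaction was called for 0 of them. Gbp2, a guanylate-binding protein, rose in both (1.29 and 2.04, adjusted p = 0.00667 and 0.000168). It was 35.2, 45.5 and 18.5 RPKM in PCT and 51.9, 39.7 and 56.1 in PST, against 8.31 to 19.7 in normal-looking Pirc colon. The study implicated an IFN-alpha pathway beside that of IFN-gamma in tumors on SPI relative to control diet. Whether the target genes listed here answer to interferon-gamma alone was not tested. Of the 16 genes of interferon-gamma signal and induction 4 rose (25.0%) and 3 fell (18.75%) in PCT, beside 21.0 and 11.7% of all genes. In PST 5 rose (31.25%) and 4 fell (25.0%), beside 25.9 and 16.5%. Socs1 and Socs3, feedback inhibitors, rose in both. Il18 and Irf2 were lower in every PCT library than in any PCN library. Il18 was 118.3, 175.8 and 220.4 RPKM in PCN and 24.4, 35.5 and 61.8 in PCT, and Irf2 42.9, 44.6 and 45.2 against 28.4, 33.4 and 32.4. Of 11 receptors and checkpoint partners of MHC 3 rose in PCT (27.3%, beside 21.0% of all genes), among them Cd274, the PD-1 ligand (0.91, adjusted p = 0.0239), and 4 in PST (36.4%, beside 25.9%), among them Lag3, which binds class II (1.54, adjusted p = 0.000630). The 9 T cell markers summed to 37.9 to 55.2 RPKM in Pirc normal-looking colon and 51.5 to 140.3 in tumors. Of 7 tested 1 rose in PCT (14.3%, beside 21.0% of all genes) and 3 in PST (42.9%, beside 25.9%). Cd3g alone made up 100.9 of the 140.3 RPKM in PST2, and 15.9 to 48.9 RPKM in the other tumors. Cd5 was at 0.160 RPKM or less and Cd8b at 0.710 or less in every library.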

How the data were processed

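The strand was kept in these poly(A) RNA-seq libraries, with paired reads of 75 bases, per the labels. Bowtie2 and DESeq2 are named in the submitters' processing notes. Their settings were not given in the sources used here, nor was a build or annotation. RPKM values were deposited by the authors to 2 decimals for 17378 entries, of which 26 with names turned into dates were left out. Relative depth was read from the steps of low values by an estimator that recovered 54 of 54 simulated libraries within 0.05 log2 units, and differed by up to 2.46 times. No read totals were used, so no counting interval is given. Pearson correlations between libraries were 0.935 to 0.992, with 0 identical pairs. The small RNA files were not used here.

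limma 3.58.1 (trend and robust, statmod 1.5.0, R 4.3.3) was fitted on log2(RPKM + 0.5) with a mean for each group, after a filter of 1 RPKM in 3 libraries, and tested on simulated data. The study's own test, DESeq2 on counts, was not used because these values are not counts. A gene was called at an adjusted p under 0.05. The smallest exact permutation p for 3 against 3 libraries is 0.1. Members, lists, tests and alternatives were chosen with earlier results of these data known, and lists were only counted. Named with values were the 12 genes found by name, the class II entries tested, the 4 class I entries with the highest mean RPKM, every other RT1 entry called, and up to 4 called genes for each list. Others named were chosen after their values were seen. The study describes the 3 libraries of a group as biological replicates, and the labels do not give the animal of each.

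Tumor and normal-looking tissue were matched by animal, per a figure legend of the study, and the fit with the replicate block treats libraries of the same number as 1 rat. After removal of group means they correlated at 0.0965, 0.0886 and 0.193 for PCN with PCT and at 0.128, -0.0496 and 0.0219 for PSN with PST. Alternatives changed the pseudocount, filter, scaling, weights, libraries fitted and block, and left out each library in turn. Protein identity between members, also planned, was not run because no protein table was used here. Promoters are from RefSeq GRCr8, whose coordinates are not those of the RPKM files. Figures and summaries were made with matplotlib 3.10.9, pandas 2.3.3, numpy 2.4.6 and scipy 1.17.1 in Python 3.11.15. One B cell marker is not reported here by name.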

Additional observations from a re-analysis of the deposited data

How the results depend on the processing

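Counts of called members moved with the processing, and 5 of the 6 calls had an adjusted p of 0.0250 to 0.0488. PCT vs. PCN had 2 calls, and 0 without a filter on low values, 4 with library weights, 1 with the replicate block, and 0 to 4 when 1 library was left out (0 without WSN3, PCN2, PSN3 or PCT2, 4 without PST2). PST vs. PSN had 4 calls, and 2 without a filter, 2 with the filter of 5 RPKM, which also tests fewer members, 3 with a pseudocount of 1 or with PSN and PST alone, 5 with the replicate block (RT1-Bb risen and RT1-DOa fallen gained, Tapbp lost), median-of-ratios scaling (Erap1 gained) or library weights (RT1-Bb gained), and 1 to 3 when 1 library was left out (1 without PSN1 or PST2). Where a cause is not given by the setting itself, the cause was not tested. In the other comparisons the count was 0 under each alternative run. No called gene changed direction in any of them, and RT1-CE2 in PST vs. PSN kept its call in all. Calls were gained, under some alternatives, for Psmb10, Tapbp and RT1-CE2 in PCT vs. PCN and Erap1, RT1-Bb, RT1-DOa and RT1-T24-3 in PST vs. PSN. With the replicate block over same-numbered libraries, which here are different rats, 0 members were called in the comparisons of diet and genotype, and same-numbered libraries correlated at 0.210, 0.653 and 0.171 between WSN and PSN (each over 0.1, a hint from the data and not the design), at 0.254, 0.422 and 0.0534 between WCN and WSN, and at 0.0850 or less in the rest. The planned comparison of protein sequences was not run. Depth, known only as a ratio between libraries, limits genes near 1 RPKM such as RT1-A2.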
